A study of Mus musculus with 10 samples.

Results

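Antigen-presenting cells do not only show antigen to T cells. They also carry surface proteins that raise or lower the T cell response, and 10 genes for such proteins were examined here in microglia, the resident macrophages of the brain, from the midbrain (Mdb) and the striatum (Str). The members were named by symbol, and all 10 were found among the 53715 genes of the deposited count tables. CD40 receives a signal from activated T cells and raises the antigen-presenting capacity of the cell that carries it. CD80 and CD86 bind CD28 and CTLA4, and ICOSL binds ICOS, so that these ligands give the second signal that a T cell needs beside antigen. PD-L1 (Cd274) and PD-L2 (Pdcd1lg2) bind PD1 and lower the response, BTLA and HVEM (Tnfrsf14) are a receptor pair of which BTLA is inhibitory, and VISTA (Vsir) and TIM3 (Havcr2) are further inhibitory molecules that myeloid cells also make. VISTA is known to be abundant in resting microglia.

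The cells came from untreated C57BL/6 mice (C57BL/6 J in the study's methods) aged 3 months, perfused with PBS. Brain tissue was digested with papain, cleared on Percoll, and microglia were taken with magnetic beads against CD11b, a surface protein that microglia share with monocytes, neutrophils and part of the other myeloid cells. The series held a pilot cohort, with 2 Mdb and 2 Str libraries, and a second cohort, of which 2 Mdb and 2 Str libraries entered the comparisons. A further 2 libraries of the second cohort were left out, because their titles and their files name different regions. All groups shared strain, age and the absence of treatment, so region and cohort were the only labelled differences. The purified population was bulk material, in which fewer cells of a type and less RNA per cell cannot be told apart.

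The total count of the 8 libraries ran from 575709 (Str second cohort replicate 3) to 8463782 (Str pilot replicate 2), a range of 14.7-fold. A level of 3 counts, used as the floor, equalled 0.350 CPM (counts of a gene relative to all counts of its library) in the deepest library and 5.14 CPM in the shallowest. CPM values were scaled with TMM factors throughout. All 10 microglia markers checked, among them P2ry12, Tmem119 and Csf1r, were present, and all 10 had a lower fitted level in Mdb, with a median log2 fold change of -0.62 (Mdb over Str, as for all fold changes between regions below) and 2 of them passing the test (Siglech and Olfml3). Markers of border macrophages (7 of 7 above 0, median 1.79), monocytes (6 of 6, median 2.19) and neutrophils (8 of 8, median 2.07) had higher fitted levels in Mdb, and no marker of these lists was at 0 in all libraries. Medians over all genes tested were 0.02 in the pilot, -0.00096 in the second cohort and 0.04 when both were fitted together.

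Within each cohort, a gene was called at a limma p under 0.01 without adjustment, the cutoff of the study. In the joint fit over both cohorts, with cohort as a covariate, it was called at a Benjamini-Hochberg limma adjusted p under 0.05. Of the 10 genes, 9 passed the filter on low counts and Pdcd1lg2 did not. In the pilot, 2 of 9 were called and both were higher in Mdb (Cd40 and Btla), where 2.64% of all genes were called 2.09% higher and 0.548% lower in Mdb. In the second cohort, 2 of 9 were called, Btla higher and Havcr2 lower in Mdb, against 3.47% of all genes (2.88% higher and 0.593% lower). In the joint fit, 1 of 9 was called (Btla), against 1.06% of all genes (0.975% higher and 0.0854% lower). The median log2 fold change of the 9 genes was -0.37, 0.18 and -0.0053 in the 3 fits. Btla reached each of these fits through its Mdb libraries alone and so had to differ once it was tested, which leaves Cd40 in the pilot, Havcr2 in the second cohort and no gene in the joint fit. As a group they therefore did not lie to the same side of the median of all genes in the 3 fits, and the calls were those of single genes.

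**Figure D1:**
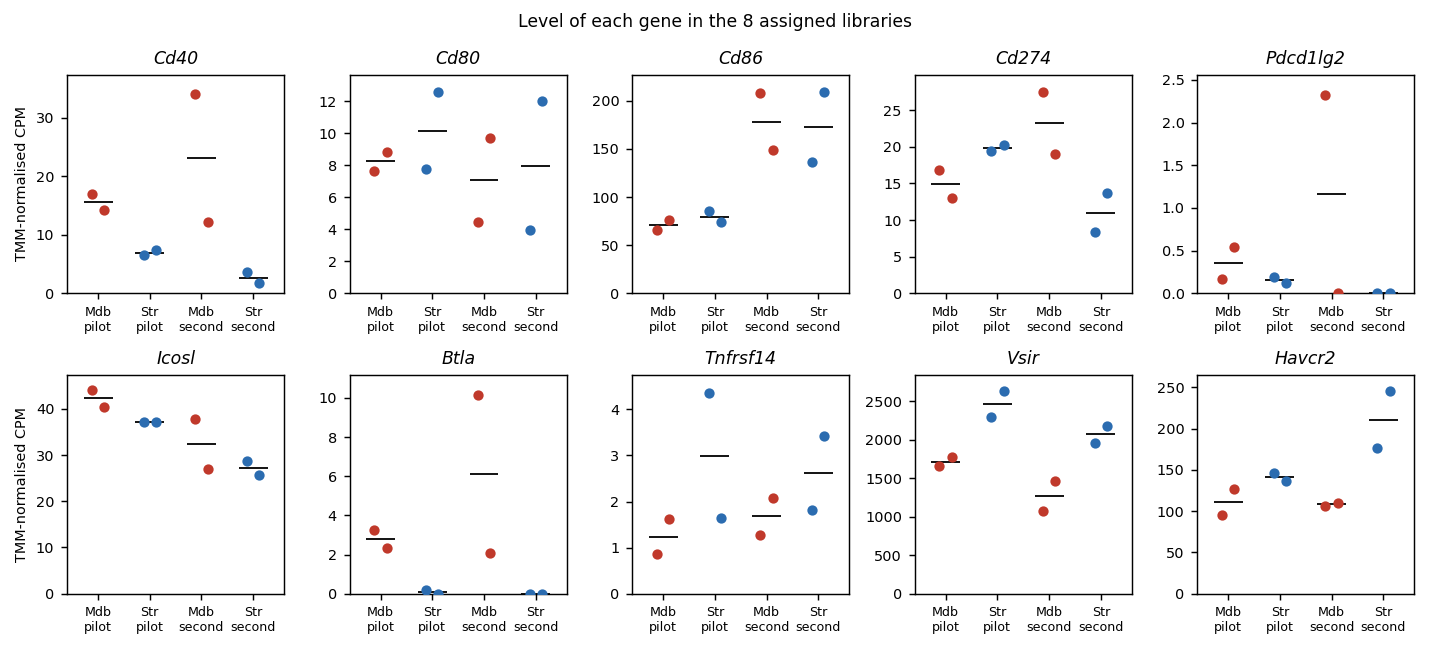
TMM-normalised CPM (linear axis from 0, its own range for each gene) in the 4 groups of midbrain (Mdb, red) and striatum (Str, blue) libraries of the pilot and the second cohort. Each point is 1 library and each bar the mean of 2 libraries. Mdb and Str points do not overlap in either cohort for Cd40 and Btla (Mdb higher) and for Vsir and Havcr2 (Str higher).

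The order of the levels was set by Vsir. Per kilobase (kb) of exon, its mean over 8 libraries was 375 CPM per kb (214.8 to 524), and the lowest Vsir library lay above the highest value of any other gene of the group. Havcr2 followed with 52.5 CPM per kb and Cd86 with 34.2. These neighbours overlapped, with Havcr2 above Cd86 in 7 of 8 libraries. Icosl came next at 7.52 CPM per kb, below Cd86 in all 8 libraries without overlap of their ranges, and above Cd80 in 7 of 8. Cd80 (4.92), Cd274 (4.77) and Cd40 (3.55 CPM per kb) could not be ordered, since each was above the next in only 5 of 8 libraries. Tnfrsf14 had 1.48, Btla 0.691 and Pdcd1lg2 0.254 CPM per kb, and their ranges overlapped as well. The libraries were made by a 3′ method, in which reads need not grow with exon length. Without division by length the first 4 places and the last were the same, Cd80 moved from the fifth to the seventh place, and Btla stood before Tnfrsf14. On the scale of CPM, Vsir made up 71.4% to 90.1% of the sum of the 10 genes, and this sum ran from 1509 to 2053 CPM in Mdb and from 2317 to 2918 in Str.

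**Figure D2:**
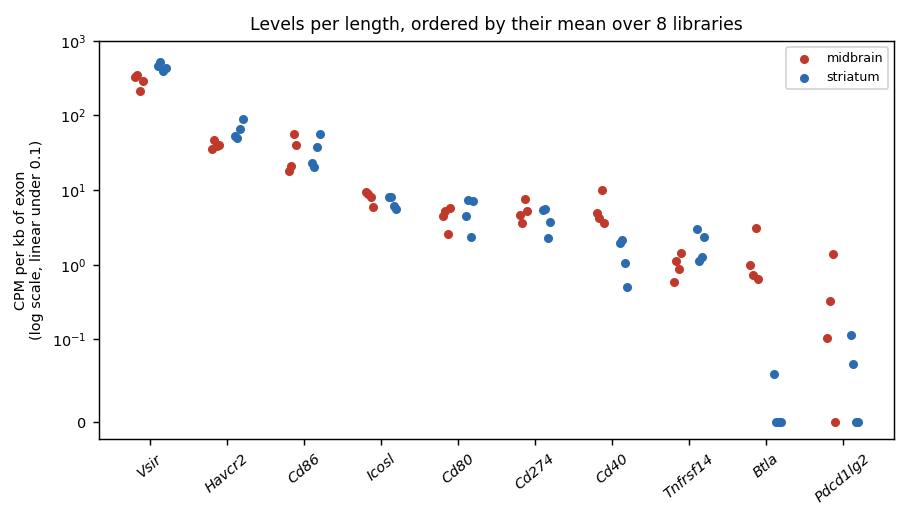
Levels in TMM-normalised CPM per kb of exon (vertical axis, log scale above 0.1 and linear below) of the 10 genes in 4 midbrain (red) and 4 striatum (blue) libraries, 1 point per library, ordered by their mean. Vsir stands above all others at a mean of 375 CPM per kb, and Btla and Pdcd1lg2 lie lowest, with several libraries at 0.

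Among the receptors that take a signal from T cells, Cd40 (ENSMUSG00000017652.16, GRCm38 chromosome 2, 165055627 to 165072948, plus strand) was higher in Mdb in each cohort. Its levels in the pilot were 17.1 and 14.2 CPM in Mdb, against 6.62 and 7.35 CPM in Str, from 35 to 100 counts per library. Those of the second cohort were 34.0 and 12.3 CPM in Mdb, from 161 and 53 counts, against 3.63 and 1.71 CPM in Str, from 10 counts and 1 count. Every Mdb library thus lay above every Str library of both cohorts, and the Mdb libraries of the second cohort were wide apart. The group means were 15.6 ± 2.01 and 6.98 ± 0.519 CPM in the pilot, and 23.1 ± 15.4 and 2.67 ± 1.35 CPM in the second cohort (SD, n = 2 each). The log2 fold change was 1.09 (SE 0.32) in the pilot, a 2.13-fold higher level past the cutoff, and 2.62 (SE 0.86) in the second cohort, just outside it. Adjusted over all genes of its cohort, neither would pass (limma adjusted p = 0.355 and adjusted p = 0.299). The pilot value missed the cutoff in DESeq2 (1.12) and with sample quality weights (1.10). The value of the second cohort passed it in edgeR (2.85), DESeq2 (2.92), with library size alone (2.57), with weights (2.63) and with the block (2.88). In the joint fit it was 1.55 (SE 0.43, 95% interval 0.61 to 2.48), with an limma adjusted p = 0.116. The regional change did not differ detectably between the cohorts (interaction 1.5, SE 0.94, limma adjusted p = 0.865). These are RNA levels, while the paper reports CD40 surface protein as higher on Str than on Mdb microglia of control mice. The pilot call was lost on leaving out any 1 of its 4 libraries, with log2 fold changes of 0.97 to 1.23. The second cohort passed the cutoff without Mdb replicate 3 (log2 fold change 3.34) or Str replicate 1 (2.98).

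Btla (ENSMUSG00000052013.14, chromosome 16, 45224315 to 45252895, plus strand), the inhibitory receptor for HVEM, had almost no counts in Str and counts in every Mdb library. The pilot gave 19 and 13 counts in the Mdb libraries, or 3.24 and 2.34 CPM, against 1 and 0 counts in Str. The second cohort gave 48 and 9 counts in Mdb, or 10.1 and 2.08 CPM, and 0 counts in both Str libraries. The Mdb libraries were therefore all above 0 and spread widely, and a single count was found in all Str libraries together. In the pilot the pooled ratio of Mdb to Str was 38.8, with a 95% interval for counting error of 6.49 to 1582. In the second cohort the Mdb mean was at least 1.96-fold higher than the floor of 3 counts per library in Str. That bound is small because the floor of the shallow Str replicate 3 was 5.14 CPM, above the 2.08 CPM of Mdb replicate 3. The fitted log2 fold change was 4.43 (SE 1.04) in the pilot and 3.62 (SE 1.15) in the second cohort, both past the cutoff of a cohort though not after adjustment over all its genes (limma adjusted p = 0.245 and adjusted p = 0.276). It was 4.03 (SE 0.80, limma adjusted p = 0.041) in the joint fit. These sizes depend on the offset added to counts of 0. Btla passed the filter on low counts through its Mdb libraries alone, so a gene with this pattern had to differ once it was tested. On leaving out 1 library, no joint fit called it. Without a Str library the limma adjusted p was 0.0567 to 0.177, with log2 fold changes of 3.52 to 4.55, and without any 1 Mdb library the gene fell below the filter. The call of the second cohort was lost without Str replicate 1 (log2 fold change 2.47) and when no filter was applied (3.80). Leaving out an Mdb library removed the gene from the fit of either cohort through the filter.

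Several marker lists of other cells had higher sums in Mdb, as Btla did. The neutrophil markers summed to 717 and 1040 CPM in the Mdb libraries of the pilot, 261 and 381 in Str, 3469 and 5988 in Mdb of the second cohort and 493 and 521 in Str. The monocyte markers summed to 214 to 258 CPM in Mdb and 93.2 to 93.9 in Str of the pilot, and to 526 to 2619 in Mdb and 123 to 180 in Str of the second cohort. The Mdb library with most Btla (second cohort replicate 1, 10.1 CPM) was also the one with most of both sums. Dendritic cell markers summed to 121 to 149 CPM in Mdb and 75.4 to 97.8 in Str, with 5 of 6 tested markers above 0 and none called in the joint fit. The largest part of the sum was Batf3 (mean 67.9 CPM, joint log2 fold change -0.08). The other 5 tested markers had joint values of 0.63 (Zbtb46) to 2.68 (Xcr1). T and NK cell markers summed to 27.4 to 82.0 CPM in Mdb and 15.3 to 19.9 in Str. Border macrophage markers summed to 1390 to 2547 CPM in Mdb and 302 to 801 in Str. The T and NK cell sum was also highest in Mdb replicate 1 of the second cohort. The dendritic cell and border macrophage sums were highest in Mdb replicate 3 of that cohort, where Btla was at 2.08 CPM. B cells, in which BTLA is well known, had marker sums that overlapped (33.8 to 56.4 CPM in Mdb and 44.6 to 55.8 in Str), most of it from Cd79b. Of the 3 tested B cell markers Cd79b had -0.34, while Ebf1 had 0.53 and Fcmr 0.98, none called in the joint fit, and Ms4a1 averaged 0.295 CPM. These sums also stood higher in Mdb beside Cd40, except that of the B cell markers. The part of these cells in the levels of Btla and Cd40 was not tested.

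**Figure D3:**
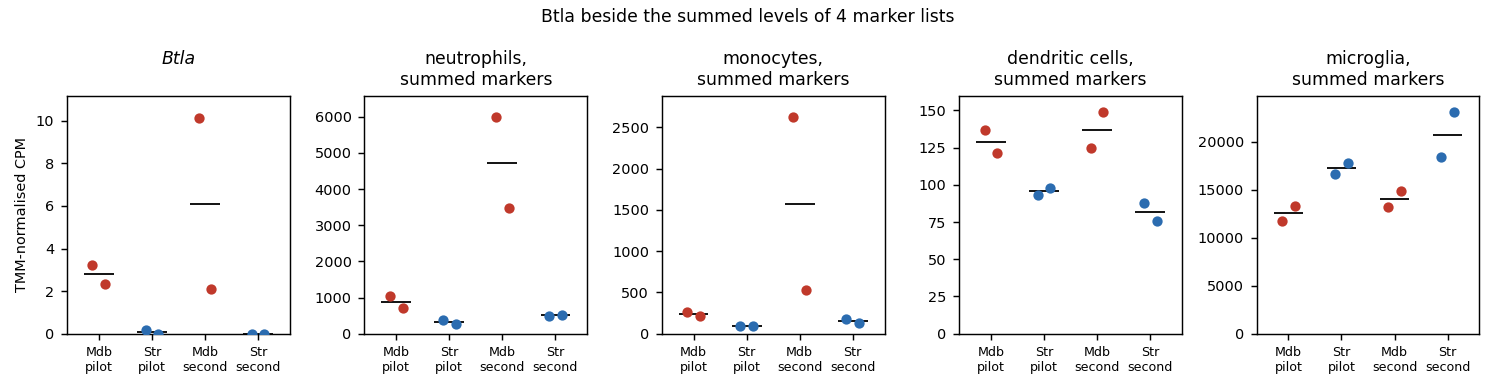
TMM-normalised CPM of Btla and the summed TMM-normalised CPM of the marker lists of 4 cell types (linear axes from 0) in midbrain (Mdb, red) and striatum (Str, blue) libraries, 1 point per library, with bars at the mean of 2. Mdb replicate 1 of the second cohort is highest for Btla (10.1 CPM), neutrophils (5988) and monocytes (2619), while the microglia sum is lower in Mdb than in Str in both cohorts.

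The partner of BTLA, HVEM, is encoded by Tnfrsf14 (ENSMUSG00000042333.16, chromosome 4, 154921933 to 154928563, minus strand), and it did not follow Btla. It had 0.853 and 1.62 CPM in Mdb and 4.35 and 1.63 CPM in Str of the pilot, from 5 to 23 counts. Its second-cohort levels were 1.27 and 2.08 CPM in Mdb and 1.81 and 3.43 CPM in Str, from 2 to 9 counts. The regions overlapped in the second cohort and were only just apart in the pilot. The joint log2 fold change was -0.83 with a 95% interval of -1.97 to 0.30 (limma adjusted p = 0.495), an interval wide enough to hold both a marked loss and a small gain.

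Of the inhibitory molecules that myeloid cells make, Vsir and Havcr2 had lower TMM-normalised levels in Mdb than in Str in each cohort, while relative to microglia markers their values lay near 0, as given below. Vsir (ENSMUSG00000020101.14, chromosome 10, 60346851 to 60372684, plus strand) gave 1656 and 1770 CPM in Mdb and 2293 and 2628 CPM in Str of the pilot. The second cohort gave 1077 and 1465 CPM in Mdb and 1958 and 2177 CPM in Str. All 4 Mdb libraries lay below all 4 Str libraries, at 1270 to 22530 counts per library. The log2 fold change was -0.56 (SE 0.19) in the pilot and -0.73 (SE 0.24) in the second cohort, both short of the cutoff (limma adjusted p = 0.404 and adjusted p = 0.299). The pilot value passed it in DESeq2, with library size alone, without a filter, with sample quality weights, and without Str replicate 1 (-0.69) or Str replicate 2 (-0.43). That of the second cohort passed with library size alone, without a filter and with the replicate number as a block (-0.74). It also passed with the unassigned libraries in the region their titles do not name. Without Mdb replicate 3 the value was -0.89. The joint value was -0.61 (SE 0.13, 95% interval -0.90 to -0.33), or 1.53-fold higher in Str, and its limma adjusted p = 0.0531 missed the threshold. The joint value passed in DESeq2 (-0.61), with library size alone (-0.66), without a filter (-0.62) and with quality weights (-0.52). It also passed with the block (-0.61) and with the unassigned libraries in the region their titles do not name (-0.69). It missed in edgeR (-0.61), with 10 counts or more in each library (-0.57), with the microglia markers as scale and with the unassigned libraries by title (-0.33). Without Mdb replicate 3 of the second cohort it passed (-0.71, limma adjusted p = 0.0385), and the other 7 joint fits on 7 libraries gave limma adjusted p of 0.0622 to 0.193. The gene body of Vsir overlaps that of Cdh23 on the opposite strand, but no exon base is shared, and none of the 10 genes shares exon bases with another gene.

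Havcr2 (ENSMUSG00000020399.14, chromosome 11, 46454935 to 46481255, plus strand) gave 95.2 and 126 CPM in Mdb and 146 and 137 CPM in Str of the pilot. The second cohort gave 107 and 110 CPM in Mdb and 176 and 245 CPM in Str. The regions were close in the pilot and clearly apart in the second cohort. The log2 fold change was -0.41 (SE 0.19) in the pilot, short of the cutoff, and -0.90 (SE 0.27, limma adjusted p = 0.253) in the second cohort, a 1.87-fold higher level in Str that passed it before adjustment. The call was lost without Str replicate 3 of the second cohort, the shallowest library, where the value was -0.70. The joint log2 fold change was -0.59 (SE 0.16, limma adjusted p = 0.121).

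The regions failed to overlap in both cohorts, with Mdb higher, for Cd40 and Btla, as for 9.01% of all genes tested in the joint fit. They failed to overlap with Str higher for Vsir and Havcr2, as for 6.06% of all genes. Microglia markers moved with the second pair. Their sum was 11790 to 13367 CPM in Mdb and 16655 to 17801 in Str of the pilot, and 13197 to 14859 in Mdb and 18443 to 23082 in Str of the second cohort. When libraries were scaled by the geometric mean of these 10 markers instead of TMM, the median of all genes in the joint fit moved from 0.04 to 0.59. On that scale Vsir had a joint log2 fold change of -0.0025 (limma adjusted p = 0.992) and Havcr2 of -0.03 (limma adjusted p = 0.924). Within the cohorts the same scale moved the median of all genes to 0.49 in the pilot and 0.77 in the second cohort. Vsir then had -0.094 and 0.088 and Havcr2 0.064 and -0.13, all below those medians. Relative to the microglia markers both genes thus lay near 0 in the joint fit, while relative to the median of all genes both stayed lower. On the same scale Cd40 had 2.09 (limma adjusted p = 0.0192) and Btla 4.56 (limma adjusted p = 0.00526), where 1814 of 14053 genes were called and 1813 of them were higher in Mdb. Calls on this scale follow its shift of all genes and are not read as results about Cd40 or Btla. This scaling was chosen after the data had been seen.

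**Figure D4:**
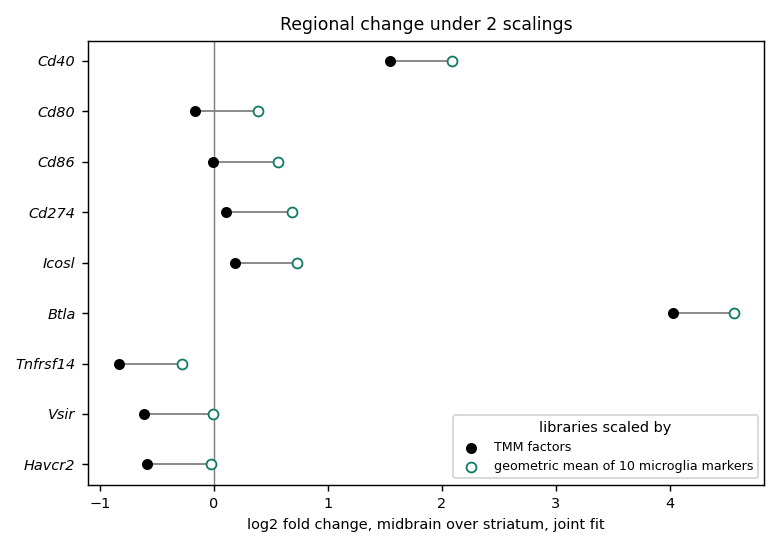
Joint-fit log2 fold change (midbrain over striatum) of the 9 tested genes with libraries scaled by TMM factors (black) or by the geometric mean of 10 microglia markers (open), each pair joined by a line. All values move up by a similar amount, Vsir and Havcr2 from -0.61 and -0.59 to near 0, and Cd40 and Btla further above it.

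The upstream sequences of Btla, Vsir and Havcr2 are shown because these genes had the clearest regional pattern among those with a sequence in RefSeq. Such a sequence was given for 8 of the 10 genes, without Cd40 and Cd86. Each line gives the 250 bases before the RefSeq start on GRCm38.p6 in the sense of the gene, Btla from chr16:45224087-45224336, Vsir from chr10:60346601-60346850 and Havcr2 from chr11:46454681-46454930, all on the plus strand. Capitals mark matches to the PU.1 core (GAGGAAG), AP-1 (TGANTCA), GAS (TTCNNNGAA), the IRF core (GAAA, any 2 bases, GAAA) or kappaB, searched on both strands.
Btla: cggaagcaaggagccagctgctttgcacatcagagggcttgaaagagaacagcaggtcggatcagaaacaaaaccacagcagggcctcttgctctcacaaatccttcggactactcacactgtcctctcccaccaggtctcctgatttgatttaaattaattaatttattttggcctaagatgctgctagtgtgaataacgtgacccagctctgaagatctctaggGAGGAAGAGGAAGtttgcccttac
Vsir: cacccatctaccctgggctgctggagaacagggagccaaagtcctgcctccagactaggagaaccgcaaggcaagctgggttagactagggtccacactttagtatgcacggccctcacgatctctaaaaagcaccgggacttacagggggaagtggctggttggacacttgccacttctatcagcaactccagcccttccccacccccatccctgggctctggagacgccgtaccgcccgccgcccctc
Havcr2: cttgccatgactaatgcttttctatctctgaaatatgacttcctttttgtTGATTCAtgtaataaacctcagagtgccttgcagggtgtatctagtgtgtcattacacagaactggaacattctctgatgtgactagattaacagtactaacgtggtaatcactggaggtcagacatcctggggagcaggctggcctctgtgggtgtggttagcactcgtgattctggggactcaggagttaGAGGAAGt
PU.1 is the factor on which the macrophage lineage depends. Its core was found at a pair of positions in Btla, 24 to 18 and 18 to 12 bases before the RefSeq start, which share 1 base. The counted Btla gene starts earlier, at 45224315, so the end of this window, with most of the pair, lies inside that gene. The core was also found 8 to 2 bases before the start of Havcr2, and in 10.6% of 32841 promoters of the same length. Havcr2 further held TGATTCA, a match to the word searched for AP-1, which allows any middle base (6.75% of promoters). Vsir held none of these words, of which GAS occurs in 7.02%, the IRF core in 2.98% and kappaB in 7.25% of promoters. The matches describe the letters of these windows, and do not separate the gene higher in Mdb from those higher in Str.

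In RNA, the B7 ligands Cd80 and Cd86 did not differ detectably between the regions. Surface protein is a different measure, for which the paper reports more CD80 and CD86 on Mdb than on Str microglia of control mice. Cd80 (ENSMUSG00000075122.4, chromosome 16, 38458933 to 38486933, plus strand) gave 7.68 and 8.82 CPM in Mdb and 7.75 and 12.6 CPM in Str of the pilot. Its levels were 4.44 and 9.71 CPM in Mdb and 3.99 and 12 CPM in Str of the second cohort. The regions overlapped in both, and the joint log2 fold change was -0.17 (95% interval -0.94 to 0.61, limma adjusted p = 0.864). Cd86 (ENSMUSG00000022901.13, chromosome 16, 36603869 to 36666081, minus strand) gave 65.8 and 76.5 CPM in Mdb and 85.4 and 73.6 CPM in Str of the pilot. The second cohort gave 208 and 148 CPM in Mdb and 136 and 209 CPM in Str. The joint log2 fold change was -0.0053 (95% interval -0.39 to 0.38, limma adjusted p = 0.993).

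Cd86 instead differed between the cohorts. All 4 libraries of the second cohort (136 to 209 CPM) lay above all 4 of the pilot (65.8 to 85.4 CPM), as for 6.55% of all genes. Its log2 fold change of the second cohort over the pilot was 1.16 (SE 0.18, limma adjusted p = 0.0056), a 2.24-fold higher level. It was the only one of the 9 called for cohort, against 10.5% of all genes (4.71% higher and 5.82% lower in the second cohort). The call held in all 18 alternative fits, with log2 fold changes of 0.80 to 1.38 and adjusted p-values of 6.49e-07 to 0.0474. The cohorts differ in mice and experiment together, which cannot be told apart. The sums of the neutrophil and of the monocyte markers were higher in the second cohort within each region, but over both regions the cohorts overlapped. Neutrophil markers summed to 717 and 1040 CPM in Mdb of the pilot and 493 and 521 CPM in Str of the second cohort. Monocyte markers summed to 214 to 258 CPM in the former and 123 to 180 in the latter. Endothelial and neuron sums were lower in the second cohort without overlap (endothelial 46.4 to 101 CPM, against 214 to 285 in the pilot). The part of these cells in the level of Cd86 was not tested. Vsir (-0.35, limma adjusted p = 0.105) and Icosl (-0.39, limma adjusted p = 0.168) had lower values in the second cohort that did not pass.

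Icosl (ENSMUSG00000000732.9, chromosome 10, 78069302 to 78083913, plus strand) varied least over the 8 libraries among the 9 tested genes, with a root mean square deviation of 0.268 in log2 CPM. It gave 44.2 and 40.3 CPM in Mdb and 37.0 and 37.1 CPM in Str of the pilot, and 37.8 and 27.1 CPM in Mdb and 28.6 and 25.7 CPM in Str of the second cohort. The regions were apart in the pilot and overlapped in the second cohort. The joint log2 fold change was 0.19 (SE 0.17, 95% interval -0.19 to 0.57, limma adjusted p = 0.657).

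The ligands of PD1 lie next to each other on chromosome 19, Cd274 (ENSMUSG00000016496.7) from 29367455 to 29388095 and Pdcd1lg2 (ENSMUSG00000016498.9) from 29410919 to 29471157, both on the plus strand. Cd274 had 16.9 and 13 CPM in Mdb and 19.5 and 20.3 CPM in Str of the pilot. Its levels in the second cohort were 27.5 and 19.0 CPM in Mdb and 8.34 and 13.7 CPM in Str, the latter from 23 and 8 counts. The regions did not overlap in either cohort, and the order was opposite, as for 4.08% of all genes. The log2 fold change was -0.47 (SE 0.27) in the pilot and 1.22 (SE 0.48) in the second cohort, neither past the cutoff. The difference between them was 1.65 (SE 0.53, limma adjusted p = 0.86), and the joint value was 0.11 (95% interval -0.60 to 0.81). The interaction called none of the 9 genes and 0% of all genes in limma. At an unadjusted p under 0.05 it picked 1 of the 9, Cd274, and 5.49% of all genes, and edgeR and DESeq2 called 0 of the 9 as well. Pdcd1lg2 had 1 and 3 counts in Mdb and 1 count in each Str library of the pilot, and 11 and 0 counts in Mdb and 0 in both Str libraries of the second cohort. A single library, Mdb replicate 1 of the second cohort, thus held most of its reads, and no difference was detectable at this depth.

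**Figure D5:**
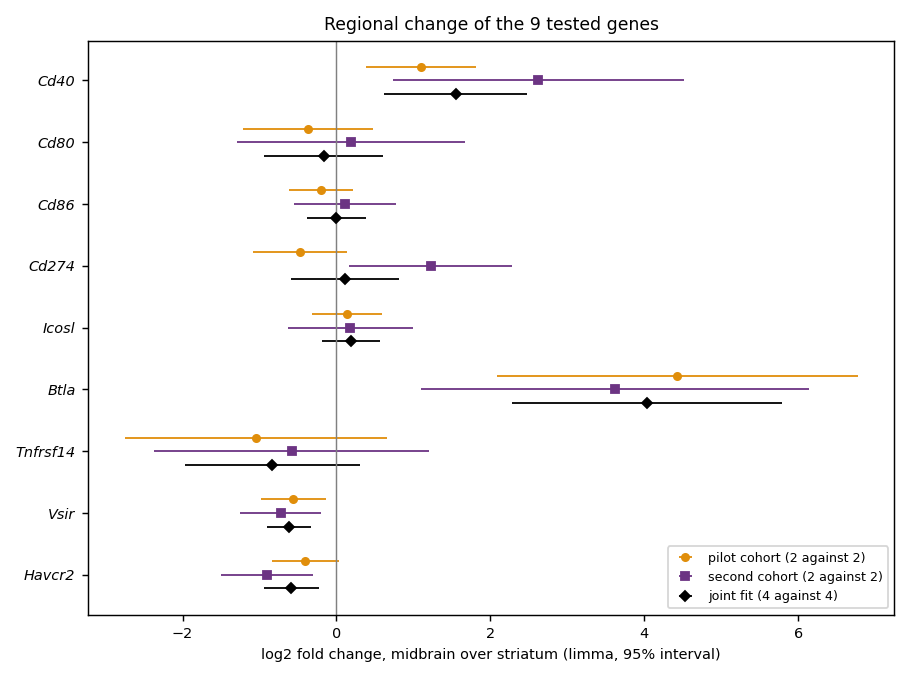
Log2 fold change of midbrain over striatum (horizontal axis) with 95% intervals from limma for the 9 tested genes in the pilot (orange), the second cohort (purple) and the joint fit (black diamonds). Btla has a joint value of 4.03 over Str libraries at 0 or 1 counts, Vsir and Havcr2 lie left of 0 in the joint fit, and Cd274 has opposite signs in the cohorts.

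Genes of the same pathways were taken from lists of known ligands, partners and signalling proteins. Of 15 other ligands of the antigen-presenting side, 10 were tested and 0 were called in the joint fit by limma, with a median log2 fold change of 0.29. The highest of them in CPM were Lgals9, a ligand of TIM3 (-0.04, limma adjusted p = 0.912), and the adhesion molecule Icam1 (-0.013, limma adjusted p = 0.984), and Vtcn1 was at 0 in all libraries. In the second cohort alone 1 of the list was called, Tnfsf9 (1.5, higher in Mdb), against 3.47% of all genes, and in the pilot 0. Of 16 partners that T cells carry, 7 were tested and 0 called in the joint fit or in either cohort, with Cd40lg and Tigit at 0 in all libraries. The highest of these in CPM was Lag3, which had 235 CPM and a log2 fold change of -0.58 (limma adjusted p = 0.134), and then Pdcd1, the receptor of PD-L1, with 4.22 CPM and 1.39 (limma adjusted p = 0.185). The highest T and NK cell marker was Nkg7 at 17.0 CPM, and Cd3e had 0.071 CPM. Which cells gave the Lag3 reads was not tested. All 14 genes of CD40 and HVEM signalling were tested, 10 had values above 0 with a list median of 0.23, and 0 were called in the joint fit. Within cohorts, 1 was called in the pilot, the adaptor Traf1 (1.00), against 2.64% of all genes. In the second cohort 2 were called, Birc3 (1.27) and Nfkbia (0.85), against 3.47% of all genes. Traf1, Birc3 and Nfkbia were all higher in Mdb. These and Tnfsf9 are named although they fall outside the naming rule, after their values were seen. The highest in CPM were the NF-kappaB inhibitors Nfkbia (joint value 0.61, limma adjusted p = 0.144) and Tnfaip3 (0.68, limma adjusted p = 0.287). Of 11 genes of interferon-gamma input and surface turnover, 1 was called in the joint fit, against 1.06% of all genes. This was Ciita, the master regulator of MHC class II genes, at 1.77 (SE 0.28, limma adjusted p = 0.0181), which was also called in both cohorts, as were 1.18% of genes with Mdb higher and 0.053% with Str higher.

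The genes with the most similar profile over the 8 libraries were taken by the root mean square (RMS) difference of centred log2 CPM. For Cd40, Ehd1 was among them (0.258), where the median gene was at 1.22 from Cd40. For Btla they were Klri2 (0.397) and Clec12a (0.422), for Vsir Cxxc5 (0.101) and Neil1 (0.105), for Havcr2 Chpt1 (0.133) and Plxdc2 (0.135), and for Cd86 Polr2g (0.115) and Gon7 (0.144). Btla had the loosest of these matches, with few counts behind it.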

How the data were processed

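RNA was sequenced with MARS-seq adapted for bulk poly-A RNA, a 3′ method, from CD11b-bead-purified microglia of the Mdb and Str. The authors aligned reads to GRCm38 with STAR 2.5.3a (per the labels) and counted exonic reads with featureCounts 1.6.0 on Gencode M17, and the deposited values are raw read counts per gene. No step that collapses molecular identifiers is named, and the interval of the pooled Btla ratio covers counting error of reads only. The intervals of log2 fold changes come from limma and include the spread between libraries. Symbols matched 53620 of 53715 identifiers. Libraries were grouped by title, and 2 with conflicting region labels were left out.

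The tests follow the study's methods: TMM factors (edgeR 4.0.16), voom weights and moderated linear models (limma 3.58.1, R 4.3.3), two-sided. A gene was dropped from a fit when over 50% of its libraries held under 6 counts. Each cohort was fitted alone, and both jointly with a cohort term and with an interaction. Log2 levels for profiles used a prior count of 2. Replicates are described as separate mice. The paper's number of mice in each experiment equals its libraries per region, so each mouse appears to have given both regions. Which Mdb and Str libraries share a mouse is not given in the sources used here, and the main fits took the libraries as independent. P-values test a difference between groups against the spread between these libraries. For each gene limma moderates that spread by the spread of all genes tested, since its own libraries are few.

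As alternatives, DESeq2 1.42.0 and the quasi-likelihood test of edgeR were run, beside other scalings, filters and weights, a replicate block, and leaving out single libraries. Fits were tested on simulated data. All 10 members are named, with the genes of each pathway list that were called in the joint fit or in both cohorts, or else its 2 highest in CPM, and the nearest profiles of called members and the highest ones. Members, lists and tests were chosen with earlier results of these data known. The values of some named genes are not reported here.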

Additional observations from a re-analysis of the deposited data

Results flagged for a closer look

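Cd274, the gene of PD-L1, was marked because its 2 cohorts went opposite ways without overlap. Its regional log2 fold change was higher by 1.65 in the second cohort than in the pilot (SE 0.53), with a limma adjusted p = 0.86 for the difference itself. The value stayed between 1.13 and 1.97 on leaving out single libraries. The Str libraries of the second cohort held 23 and 8 Cd274 counts. Groups of 2 libraries allowed no check for single samples far from the others.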

How the results depend on the processing

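Counts of called genes were small and moved with the settings. In the pilot (2 called, 395 of all genes), a stricter filter (10 counts or more in each library) left 1 call (340 of all genes), and leaving out single libraries gave 0 to 2 (108 to 2445). DESeq2 and quality weights called Vsir and Btla there, and 822 of all genes were called without a filter. In the second cohort (2 called, 468 of all genes), library size alone gave 4 calls (468), the stricter filter 1 (204), and leaving out single libraries 1 to 4 (393 to 1240). In the joint fit (1 called), DESeq2 gave 4 calls (Cd40, Vsir, Havcr2 and Btla), sample quality weights 3, library size alone 2, no filter 2, the stricter filter 0, the microglia markers as scale 2, and leaving out single libraries 0 to 1. For the cohort term (1 called), no filter and the microglia markers each gave 2 calls, Vsir and Cd86. With the 2 unassigned libraries in the region of their titles, 0 genes were called in the second cohort (132 of all genes) and 0 jointly, where Vsir was at -0.33 and Havcr2 at -0.42, and with both in the other region 2 were called jointly (Vsir and Havcr2). Over all genes, the joint count was 149 by limma, 237 by edgeR, 554 by DESeq2, 277 without a filter, 57 with the stricter filter, 412 with weights, 308 with the block, 1814 with the microglia markers as scale, and 0 and 440 with the unassigned libraries placed by title or in the other region. Scaling by the microglia markers raised the share of calls with Mdb higher from 79.2% to 99.7% in the pilot and from 82.9% to 99.8% in the second cohort, and lowered the share with the second cohort higher from 44.7% to 5.79%, against 27.5% with library size alone. The replicate number as a block gave 1 call in the pilot (Btla, 401 of all genes), 4 in the second cohort (988) and 2 jointly. Same-numbered libraries correlated at -0.03 and 0.08 in their deviations from the group means, so pairing by replicate number was not established.

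Of 456 values of single genes under alternatives, 375 kept direction and side of the threshold, 35 gained a call, 16 lost it and 30 changed sign. With the microglia markers as scale, which by construction moved the medians of all genes to 0.49, 0.77 and 0.59 and so carried values near 0 across it, the sign changed for Cd80 (0.11), Cd86 (0.27) and Havcr2 (0.064) in the pilot, Tnfrsf14 (0.18) and Vsir (0.088) in the second cohort, and Cd80 (0.39) and Cd86 (0.57) jointly. The cause of the other sign changes was not tested. Cd80 in the second cohort was -0.025 in DESeq2, -0.14 with the block and -0.20 with the unassigned libraries in the other region, where Cd86 was -0.10. In the joint fit Cd86 was 0.033 under the stricter filter, 0.00037 with the block and 0.11 with the unassigned libraries by title, where Cd80 was 0.017. With quality weights Cd80 was 0.022 and Cd274 -0.029. Leaving out single libraries gave ranges across 0 for Cd80 in the pilot (-0.67 to 0.076), for Cd80 (-0.99 to 1.00), Cd86 (-0.29 to 0.43) and Icosl (-0.034 to 0.47) in the second cohort, and for Cd80 (-0.48 to 0.13), Cd86 (-0.23 to 0.070) and Cd274 (-0.30 to 0.36) jointly. Depth limits Btla, Pdcd1lg2 and Tnfrsf14, and Str replicate 3 of the second cohort limits every gene of low level.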

Other observations

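The 2 libraries of the second cohort whose titles and files disagree on the region were given no region here, and their values, in CPM scaled over 10 libraries, are listed beside those of the assigned libraries of that cohort. The library titled Mdb had 2121 CPM of Vsir and the library titled Str had 1132 CPM, where the assigned libraries spanned 1083 to 1484 CPM in Mdb and 1956 to 2220 CPM in Str. For Havcr2 they had 175 and 128 CPM, where the assigned spanned 107 to 112 CPM in Mdb and 176 to 250 CPM in Str. For Cd40 they had 3.82 and 7.23 CPM, from 6 and 38 counts. Btla had 2 and 3 counts, and Cd86 174 and 110 CPM. Their Cd274 levels of 21.7 and 18.4 CPM lay closer together than those of the assigned regions.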
